A study of Homo sapiens with 6 samples.

Results

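The glycolytic enzymes and hypoxia-induced genes described here are 37 named genes that carry glucose to lactate or are known to be induced when oxygen is low. They were taken from the expression table by gene symbol, and all 37 of 37 symbols were found among its 58735 named genes. By role they are 4 transporters of glucose and lactate, 19 glycolytic enzymes, 2 pyruvate dehydrogenase kinases and 12 targets of the hypoxia-inducible factors (HIF) outside glycolysis. After the filter on low counts, 35 of the 37 were tested among 14280 genes. The 2 left out were ALDOC and LDHB, whose levels are given below.

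RNA was sequenced from 8505C, an established human line of anaplastic thyroid carcinoma. One group carried a control short hairpin RNA (3 libraries, genotype label wild-type) and the other a hairpin against HHEX (3 libraries, genotype label HHEX KD). HHEX is a homeobox gene whose product, a transcription factor, is needed when the thyroid forms. All cells were untreated, grown in an incubator under 5% CO2 at 37 °C and collected 24 hours after plating, and no oxygen level is stated. The series' design text calls the 3 libraries of a group biological replicates, but whether the hairpin lines were derived separately is not stated there. The titles number the libraries of each group rep1_1, rep1_2 and rep2_1, whereas the table calls them control1 to control3 and KD1 to KD3, and nothing ties the former to the latter. A p-value here therefore sets the difference between the groups against the spread between these libraries, and that spread may be technical in part.

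Glycolysis splits glucose into pyruvate in the cytoplasm, and lactate dehydrogenase turns pyruvate into lactate so that the pathway can go on without oxygen. HIF is a transcription factor made of an oxygen-labile alpha subunit and a stable partner, ARNT. When oxygen falls, the prolyl hydroxylases that mark the alpha subunit for destruction slow down, and HIF binds hypoxia response elements near most glycolytic genes and near many genes with other tasks. Carcinoma lines commonly run glycolysis at a high rate also when oxygen is at hand.

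Total counts over named genes ranged from 13333245 to 15144176 per library. Levels are given as CPM, counts of a gene per 1000000 counts of the scaled library, and 3 counts corresponded to 0.196 to 0.225 CPM. HHEX itself lay at 12.7, 12.8 and 12.0 CPM in control1 to control3. It lay at 14.8, 7.94 and 7.13 CPM in KD1 to KD3. The library labelled KD1 thus held more HHEX RNA than any control, against its label, and the groups overlapped (log2 fold change -0.33, SE 0.28, edgeR adjusted p = 0.527). Of the markers of thyroid follicular cells, TG, TSHR and SLC5A5 were at or near 0, whereas NKX2-1 was present at 18.0 to 50.5 CPM, and the keratin KRT8 and vimentin (VIM) were abundant. Summed markers of other cell types lay at 2.99 to 4.79 CPM for leukocytes, 5.01 to 16.2 CPM for endothelium and 14.4 to 55.9 CPM for fibroblasts, the last 2 sums lowest in KD3, and their part in the results was not tested.

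No member passed the threshold of an adjusted p of 0.05 in edgeR's quasi-likelihood test of the 3 HHEX hairpin libraries against the 3 controls. Over all 14280 genes 15 passed as higher (0.105%) and 11 as lower (0.077%). At an unadjusted p under 0.05 there were 13 members of 35, and 2937 of all genes. In bulk RNA, fewer cells with a transcript and less of it per cell cannot be told apart. In 14 of the 35 tested members every HHEX hairpin library lay above every control, which held for 11.6% of all tested genes, and in 0 members did every one lie below (13.3% of all genes). The libraries labelled KD1 and KD2 resembled each other in these genes, KD3 differed from both, and control3 lay below the other controls in nearly all members. Log2 fold changes are of the HHEX hairpin group over the control group throughout. Their median was 0.53 over the 17 tested glycolytic enzymes, 0.10 over the 12 HIF targets outside glycolysis, and -0.01 over all tested genes.

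**Figure D1:**
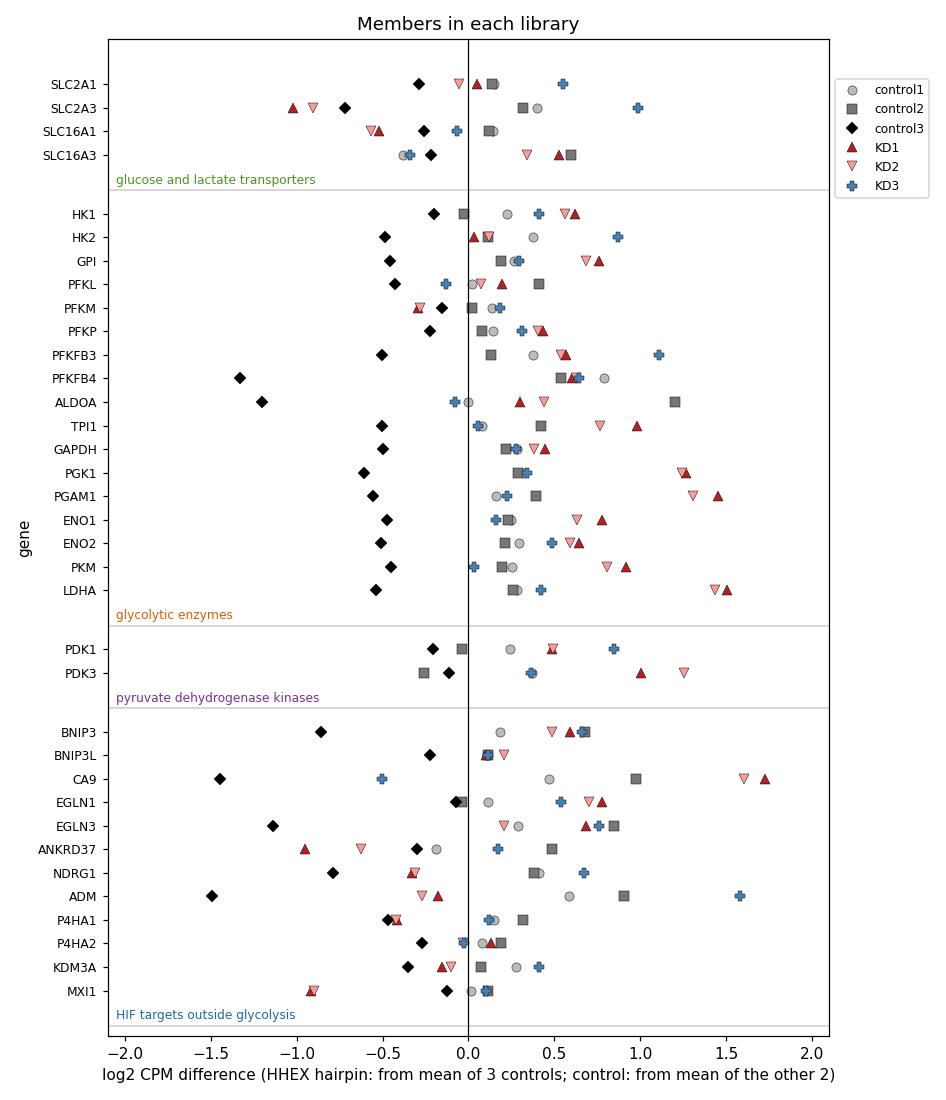
Log2 CPM difference (horizontal axis) of each tested member (vertical axis, by role) in each library; HHEX hairpin libraries are set against the mean of the 3 controls and each control against the mean of the other 2 controls. KD1 and KD2 sit to the right of 0 for 16 of 17 glycolytic enzymes, and control3 sits to the left of 0 for all 35 genes.

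Glucose enters the cell through transporters of the SLC2A family. SLC2A1 (GLUT1), the widespread basal glucose carrier, lay at 229, 227 and 187 CPM in control1 to control3 and at 221, 205 and 314 CPM in KD1 to KD3. KD3 was the highest library, and the groups overlapped (log2 fold change 0.20, SE 0.18, edgeR adjusted p = 0.551). SLC2A3 (GLUT3), a glucose carrier of high affinity, had a wider spread. It lay at 40.7, 39.2 and 24.2 CPM across the controls beside 16.5, 18.0 and 67.0 CPM in KD1 to KD3. The libraries labelled KD1 and KD2 were thus below all controls and KD3 above all of them, so that the group difference was near 0 (log2 fold change -0.04, SE 0.54). Per kilobase of transcript, SLC2A3 made up 14.3%, 13.9% and 10.8% of the summed level of SLC2A1 and SLC2A3 in the controls, 6.56% and 7.58% in KD1 and KD2, and 16.7% in KD3.

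Lactate leaves or enters through monocarboxylate transporters. SLC16A1 (MCT1), which carries lactate in either direction, lay at 357, 353 and 296 CPM across the controls beside 233, 226 and 319 CPM in KD1 to KD3. SLC16A3 (MCT4), the HIF-induced exporter of lactate, lay at 145, 228 and 157 CPM across the controls beside 249, 219 and 137 CPM in KD1 to KD3. Both genes overlapped between the groups, with log2 fold changes of -0.37 (SE 0.17, edgeR adjusted p = 0.256) and 0.19 (SE 0.25, edgeR adjusted p = 0.685). Their balance differed between libraries of one group: per kilobase, SLC16A3 made up 49.3% and 46.8% of the pair in KD1 and KD2, 27.9% in KD3 and 26.9% to 36.9% in the controls. None of the 4 transporters had groups that did not overlap.

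Glycolysis begins with hexokinase, which traps glucose as its 6-phosphate. HK1, the constitutive hexokinase, lay at 220, 195 and 180 CPM across the controls beside 304, 292 and 263 CPM in KD1 to KD3. Each HHEX hairpin library was above each control, and edgeR gave a log2 fold change of 0.53 and an SE of 0.13 (adjusted p = 0.113). HK2, the inducible hexokinase and a classical HIF target, stood above the controls in KD3 alone: 167, 148 and 112 CPM in the controls stood beside 143, 153 and 256 CPM in KD1 to KD3 (log2 fold change 0.37, SE 0.24, edgeR adjusted p = 0.403). Per kilobase, HK2 made up 22.7% and 24.6% of the hexokinase pair in KD1 and KD2, 37.9% in KD3 and 28.0% to 32.2% in the controls. GPI, which turns glucose 6-phosphate into fructose 6-phosphate, lay at 280 ± 48.3 CPM over the controls against 418 ± 68.8 CPM over the HHEX hairpin group (SD, n = 3 each), with no overlap (log2 fold change 0.58, SE 0.18, edgeR adjusted p = 0.153).

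Phosphofructokinase commits sugar to glycolysis, and its 3 subunits differed from each other. PFKP, the platelet-type subunit, lay at 242, 235 and 204 CPM across the controls beside 306, 300.2 and 281 CPM in KD1 to KD3, without overlap (log2 fold change 0.38, SE 0.13, edgeR adjusted p = 0.161). PFKL, the liver-type subunit, differed by less than the spread between libraries (182 ± 34.8 against 186 ± 20.9 CPM, SD, n = 3 each). PFKM, the muscle-type subunit, was the only tested glycolytic enzyme with a log2 fold change below 0 (-0.12, SE 0.16), although PFKL joined it with upper-quartile or no scaling. Its 92.3 and 93.2 CPM in KD1 and KD2 lay under the controls (121, 114 and 106 CPM), and its 129 CPM in KD3 above them. PFKM shares 8.58% of its exon bases with SENP1, and whether reads were counted by strand is not stated.

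PFKFB3 and PFKFB4 make fructose 2,6-bisphosphate, the strongest activator of phosphofructokinase, and both are known to be induced by HIF. PFKFB3 lay at 46.7, 41.7 and 31.0 CPM across the controls beside 58.3, 57.2 and 85.0 CPM in KD1 to KD3. The groups did not overlap and KD3 was highest (log2 fold change 0.75, SE 0.21, edgeR adjusted p = 0.128). PFKFB4 was nearly level in the HHEX hairpin libraries, at 40.6, 41.4 and 41.9 CPM, whereas the controls ranged from 14.4 CPM in control3 to 34.4 and 38.6 CPM. Its log2 fold change was 0.51 (SE 0.32, edgeR adjusted p = 0.387). The HHEX hairpin libraries lay close above control1, and control3 was far below both.

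In the lower part of the pathway, where 3-carbon sugars are oxidised and ATP is made, every tested enzyme but aldolase was highest in KD1, next highest in KD2 and lowest in control3. TPI1, which interconverts the triose phosphates, lay at 492, 577 and 376 CPM across the controls beside 936, 808 and 493 CPM in KD1 to KD3. GAPDH, the NADH-forming dehydrogenase often used as a reference gene, lay at 2054, 1996 and 1433 CPM across the controls beside 2460, 2350 and 2189 CPM in KD1 to KD3. Of the pair, GAPDH had groups that did not overlap (log2 fold change 0.35, SE 0.19, edgeR adjusted p = 0.320). PGK1, the first ATP-forming enzyme, lay at 1111, 1097 and 725 CPM across the controls beside 2308, 2272 and 1215 CPM in KD1 to KD3, again without overlap. PGAM1, the phosphoglycerate mutase, lay at 235, 262 and 169 CPM across the controls beside 598, 541 and 255 CPM in KD1 to KD3. The log2 fold changes of PGK1 and PGAM1 were 0.98 (SE 0.28, edgeR adjusted p = 0.134) and 1.07 (SE 0.32, edgeR adjusted p = 0.145), and in both genes KD3 was closer to the controls than to KD1 and KD2.

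ENO1, the main enolase, lay at 5109, 5074 and 3658 CPM across the controls beside 7812, 7073 and 5088 CPM in KD1 to KD3, with KD3 between control1 and control2. ENO2, the neuronal-type enolase that HIF also induces, lay at 87.5, 84.3 and 60.3 CPM across the controls beside 119, 115 and 107 CPM in KD1 to KD3, without overlap (log2 fold change 0.56, SE 0.16, edgeR adjusted p = 0.131). Per kilobase, ENO2 made up 1.25% to 1.71% of the enolase pair in the 6 libraries. PKM, pyruvate kinase, lay at 2134, 2075 and 1542 CPM across the controls beside 3588, 3313 and 1937 CPM in KD1 to KD3, so that KD3 lay within the range of the controls. LDHA, which makes lactate from pyruvate, had the largest log2 fold change of the 35 tested members. It lay at 1606, 1589 and 1098 CPM across the controls beside 4006, 3811 and 1892 CPM in KD1 to KD3. All 3 HHEX hairpin libraries were above all controls, and edgeR gave a log2 fold change of 1.18 and an SE of 0.30 (adjusted p = 0.117). LDHA spans positions 18394388 to 18408425 of chromosome 11 (GRCh38, plus strand), and pseudogenes named after it held counts equal to 0.0397% of its own.

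**Figure D2:**
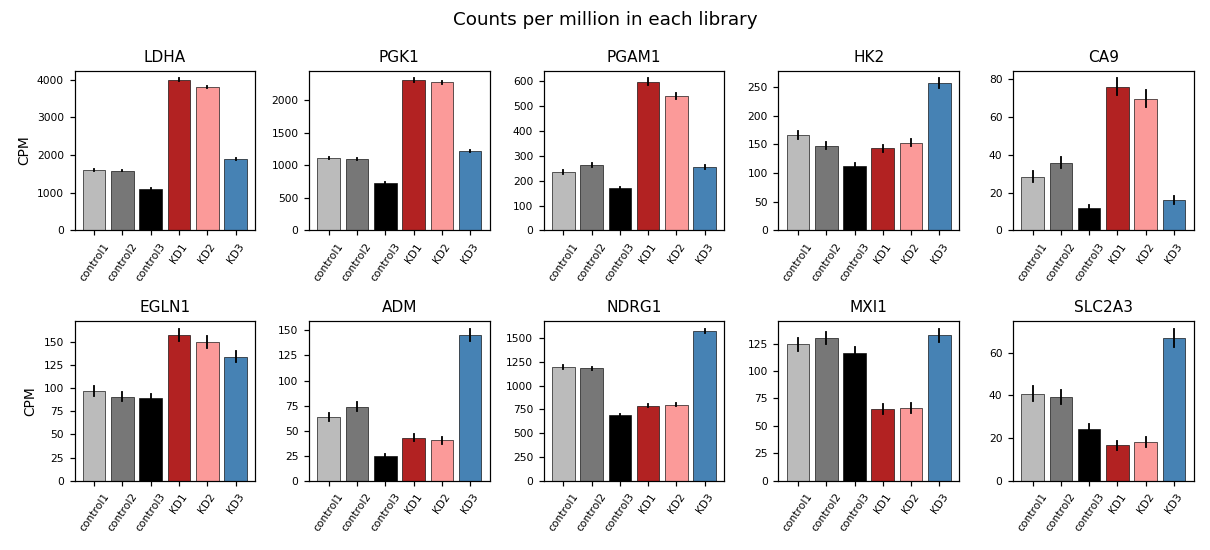
Level in CPM (vertical axes, each from 0) of 10 members in each of the 6 libraries; bars are single libraries and black lines exact 95% Poisson intervals, which cover counting error only. LDHA reaches 4006 CPM in KD1 and 1892 CPM in KD3, whereas ADM is at 42.8 CPM in KD1 and 145 CPM in KD3.

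Aldolase A and the B subunit of lactate dehydrogenase were nearly absent from the table. ALDOA held 9 to 31 counts per library (0.587 to 2.06 CPM) and LDHB under 1 CPM in each library. In the annotation whose coordinates match the table, 42.3% of ALDOA's exon bases (1657 bases) lie on the same strand within AC093512.2, a protein-coding gene model that itself held 30 to 48 counts per library. Of LDHB's exon bases 33.4% lie within AC010197.2, which held 0 counts. The low values of ALDOA and LDHB are therefore given as the table lists them and not read as the expression of these genes, and the part of the shared exons in them was not tested. ALDOC, the brain-type aldolase, lay at 0.0652 to 0.787 CPM, partly under the level of 3 counts.

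The pyruvate dehydrogenase kinases switch off the entry of pyruvate into the mitochondria and so turn it towards lactate. PDK1, a HIF target, lay at 68.0, 59.8 and 55.2 CPM across the controls beside 85.2, 85.7 and 109.7 CPM in KD1 to KD3. The groups did not overlap, and KD3 was highest (log2 fold change 0.62, SE 0.15, edgeR adjusted p = 0.106). PDK3, whose product is the kinase of highest activity, lay at 9.58, 7.12 and 7.63 CPM across the controls beside 16.3, 19.4 and 10.4 CPM in KD1 to KD3. The groups did not overlap here either, but KD3 was the lowest of its group (log2 fold change 0.92, SE 0.26, edgeR adjusted p = 0.131). Per kilobase, PDK3 made up 58.5% and 62.6% of the pair in KD1 and KD2, 41.2% in KD3 and 46.8% to 51.0% in the controls.

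Outside glycolysis, the 12 HIF targets showed several patterns across the libraries. EGLN1 (PHD2) is the main prolyl hydroxylase that marks HIF for destruction, and is itself a HIF target. It lay at 97.2, 90.5 and 89.0 CPM across the controls beside 158, 150.0 and 134 CPM in KD1 to KD3. The groups did not overlap, and its edgeR adjusted p of 0.0731 was the smallest of the 35 tested members (log2 fold change 0.67, SE 0.12). EGLN3 (PHD3), the hydroxylase most strongly induced by hypoxia in many cells, was rare. It lay at 6.44, 8.38 and 3.26 CPM across the controls beside 9.12, 6.51 and 9.60 CPM in KD1 to KD3, with overlap (log2 fold change 0.48, SE 0.34).

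BNIP3 and BNIP3L mark mitochondria for removal by autophagy. BNIP3 lay at 223, 280 and 138 CPM across the controls beside 309, 287 and 324 CPM in KD1 to KD3. The groups did not overlap, yet control2 and KD2 were close (log2 fold change 0.52, SE 0.23, edgeR adjusted p = 0.249). BNIP3L was more even, at 202 ± 17.4 CPM over the controls against 222 ± 9.11 CPM over the HHEX hairpin group (SD, n = 3 each).

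CA9 encodes carbonic anhydrase IX, a cell-surface enzyme of pH control and a widely used marker of hypoxic tumour cells. It lay at 28.3, 35.8 and 11.6 CPM across the controls beside 75.8, 69.4 and 16.0 CPM in KD1 to KD3. CA9 was thus high in the libraries labelled KD1 and KD2, and in KD3 lower than in control1 and control2 (log2 fold change 1.09, SE 0.60, edgeR adjusted p = 0.338). Of its exon bases 38.5% are shared with ARHGEF39 on the opposite strand, which lay at 11.2, 10.6 and 7.89 CPM across the controls and 20.1, 18.8 and 5.08 CPM in KD1 to KD3. Without strand, reads of the 2 genes cannot be told apart there.

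The opposite order was seen for ADM and NDRG1. ADM encodes adrenomedullin, a peptide that widens vessels. It lay at 63.6, 73.8 and 24.3 CPM across the controls beside 42.8, 40.2 and 145 CPM in KD1 to KD3. NDRG1, a growth-related gene induced by hypoxia and by differentiation, lay at 1197, 1183 and 688 CPM across the controls beside 791, 798 and 1579 CPM in KD1 to KD3. In both genes KD3 was the highest of the 6 libraries and control3 the lowest, with KD1 and KD2 in between. Their log2 fold changes were 0.50 (SE 0.59, edgeR adjusted p = 0.653) and 0.05 (SE 0.32, edgeR adjusted p = 0.946).

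Of the collagen prolyl hydroxylases, which need oxygen to mature collagen, P4HA1 lay at 133, 144 and 99.8 CPM across the controls beside 92.7, 92.6 and 134 CPM in KD1 to KD3. P4HA2 lay at 69.7 ± 7.55 CPM over the controls against 70.7 ± 4.55 CPM over the HHEX hairpin group (SD, n = 3 each), a difference within the spread. KDM3A, a histone H3 lysine 9 demethylase, lay at 93.4, 85.0 and 69.7 CPM across the controls beside 73.7, 76.6 and 109 CPM in KD1 to KD3. MXI1, a repressor that competes with MYC for its partner MAX, was low in 2 libraries only. It lay at 124, 130.1 and 117 CPM across the controls, at 65.2 and 66.3 CPM in KD1 and KD2, and at 133 CPM in KD3 (log2 fold change -0.49, SE 0.26, edgeR adjusted p = 0.321). ANKRD37, a small ankyrin-repeat protein gene induced by HIF, lay at 5.02, 6.92 and 4.76 CPM across the controls beside 2.77, 3.51 and 6.21 CPM in KD1 to KD3. It shares 35.2% of its exon bases with UFSP2 on the opposite strand, which lay at 36.3 to 37.8 CPM across the controls beside 27.8, 29.1 and 35.2 CPM in KD1 to KD3.

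Glycolytic enzymes and HIF targets outside glycolysis were then set side by side within each HHEX hairpin library, since the 2 sets share a known inducer. The median log2 difference from the control mean of the 17 enzymes came to 0.62 for KD1, 0.59 for KD2 and 0.30 for KD3. Over the 12 HIF targets outside glycolysis it was -0.03, -0.07 and 0.29. The enzymes therefore stood above these 12 HIF targets in the libraries labelled KD1 and KD2. Both sets were at the same median in KD3. The gap in KD1 and KD2 was smaller against the 20 other hypoxia-induced genes described below. Their medians were 0.525, 0.525 and 0.268 in KD1 to KD3. Summed levels of the sets also differed in KD1 and KD2. All 19 enzymes took 1.42%, 1.40% and 1.01% of scaled counts in the controls, 2.35% and 2.19% in KD1 and KD2 and 1.47% in KD3. The 12 HIF targets took 0.225%, 0.233% and 0.149% in the controls, 0.191% and 0.189% in KD1 and KD2 and 0.288% in KD3. Their sum in KD1 and KD2 thus lay within the range of the controls. In KD3 the sums, unlike the medians, were not alike: the enzymes stood little above control1, the HIF targets well above every control. NDRG1 is the largest part of the HIF sum. At 791 and 798 CPM in KD1 and KD2 it was below control1 and control2 (1197 and 1183 CPM) and above control3 (688 CPM). The sum without NDRG1 was not taken.

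**Figure D3:**
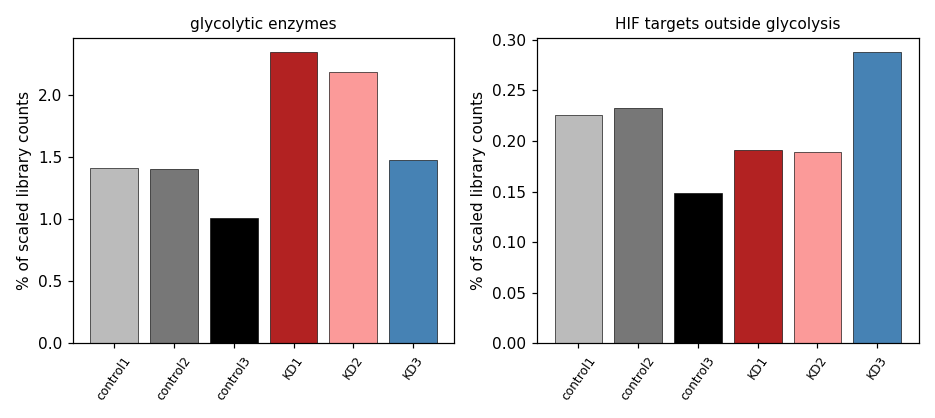
Summed level of the 19 glycolytic enzymes (left) and of the 12 HIF targets outside glycolysis (right) in each library, as a percentage of scaled library counts (vertical axes from 0). The enzymes are highest in KD1 (2.35%) and the HIF targets in KD3 (0.288%), and both are lowest in control3.

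Counted gene by gene, KD1 and KD2 both lay at least 1.5-fold above the control mean in 12 members, which was the case for 8.9% of all tested genes. Of these, 9 were glycolytic enzymes (GPI, PFKFB4, TPI1, PGK1, PGAM1, ENO1, ENO2, PKM and LDHA), 2 were HIF targets outside glycolysis (CA9 and EGLN1) and the other was PDK3. Both lay at least 1.5-fold below it in 3 members, SLC2A3, ANKRD37 and MXI1, beside 12.9% of all genes. KD3 lay at least 1.5-fold above the control mean in 9 members, against 6.5% of all genes. They were SLC2A3, HK2, PFKFB3, PFKFB4, PDK1, BNIP3, EGLN3, NDRG1 and ADM. It lay that far below in 0 members (10.1% of all genes).

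KD1 and KD2 were both above KD3 in 17 members (41.4% of all tested genes), of which 13 were glycolytic enzymes, counting ALDOA with its few counts. They were both below KD3 in 16 members (43.5% of all genes). Of the glycolytic enzymes, 4 were in this second set: HK2, PFKFB3, PFKFB4 and PFKM. Of the HIF targets outside glycolysis, 2 were in the first (CA9 and EGLN1) and 8 in the second. Over all members the shares of 17 and 16 in 35 are close to those of all genes, and it was the roles that had different counts. PFKFB4 is at its place by a small margin, since its 3 HHEX hairpin values differ by little.

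**Figure D4:**
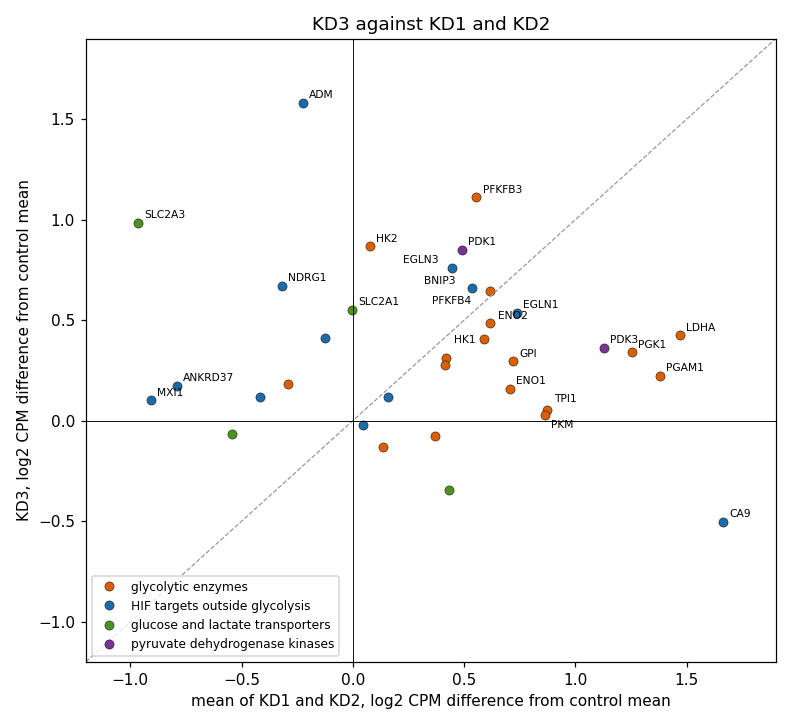
Log2 CPM difference from the control mean in KD3 (vertical axis) against the mean of KD1 and KD2 (horizontal axis) for the 35 tested members, coloured by role; the dashed line marks equal values. LDHA, PGAM1, PGK1 and CA9 lie to the right below the line, and ADM, SLC2A3, NDRG1 and MXI1 above it.

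Dividing the HHEX hairpin libraries in this way was done after their values were seen, and KD1, in which HHEX was not lower, is a library of the first kind. The control mean is shared by all 3 differences and holds control3, which was low in nearly all members. With control1 and control2 alone as reference, 8 members lay at least 1.5-fold above in KD1 and KD2 (8.97% of all genes), 5 of them glycolytic enzymes. On the same reference 5 members lay that far below (12.3% of all genes), now with ADM and SLC16A1. KD3 lay 1.5-fold above in 5 members, SLC2A3, HK2, PFKFB3, PDK1 and ADM (7.46% of all genes). The 14 members whose groups did not overlap were the same 14 without control3 (14.7% of all genes). That could not have come out otherwise, since control3 was the highest of the controls in 0 members. Leaving out KD3 instead, which could only add members, gave 19 (27.6% of all genes), the added ones being TPI1, PGAM1, ENO1, PKM and CA9.

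Fitted without KD3, edgeR called 15 members higher (16.5% of 14791 genes) and 5 lower (15.1%), at an adjusted p of 0.05. Those higher were 11 glycolytic enzymes, PDK1, PDK3, CA9 and EGLN1. LDHA was higher by 1.47 (SE 0.16, edgeR adjusted p = 3.06e-05) and PGAM1 by 1.38 (SE 0.16, edgeR adjusted p = 6.2e-05). PGK1 was higher by 1.25 (SE 0.17, edgeR adjusted p = 0.00019), and EGLN1 by 0.76 (SE 0.11, edgeR adjusted p = 0.00018). Those lower were SLC2A3, SLC16A1, P4HA1, ANKRD37 and MXI1, of which MXI1 was at -0.89 on the log2 scale (edgeR SE 0.11, adjusted p = 9.09e-05). This fit sets aside the library that differs most from the other 2 of its group. It rests on KD1, in which HHEX was at 14.8 CPM, and KD2. The spread between KD1 and KD2, on which these p-values partly rest, may be technical, since their titles are not known. Fitted without KD1 or without KD2, 0 members were called by edgeR, with 10 and 11 at an unadjusted p under 0.05.

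With DESeq2 on all 6 libraries, 8 members were called higher (3.18% of all genes): HK1, PFKFB3, PGK1, PGAM1, LDHA, PDK1, PDK3 and EGLN1. It called 0 members lower (2.86% of all genes). All 8 belong to the 15 that edgeR called higher without KD3.

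Genes of mitosis were also high in the libraries labelled KD1 and KD2, but not in KD3. All 10 genes of a list of mitosis markers (MKI67, TOP2A, CDK1 and others) had log2 fold changes above 0, with a median of 0.97, yet 0 of them were called by edgeR, 1 had an unadjusted p under 0.05, and in 0 did the groups not overlap. Set against the control mean, KD1 had a median log2 difference of 1.40, KD2 of 1.39 and KD3 of -0.61, and in control3 against the other controls it was -0.37. CDK1, the kinase that drives entry into mitosis, lay at 89.0, 92.8 and 76.8 CPM across the controls beside 216, 197 and 57.5 CPM in KD1 to KD3. The part of the cell cycle in the members' values was not tested.

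The other genes of the pathway gave no call either: of each further list, 0 genes passed the threshold in edgeR, while at an unadjusted p under 0.05 there were 11 of 20 other hypoxia-induced genes, 2 of 7 HIF subunits and regulators, 2 of 11 genes of pyruvate entry, 1 of 7 pentose phosphate enzymes, 1 of 4 glucose-responsive genes and 0 of 5 other isoenzymes, beside 2937 of all 14280 genes. Among 7 tested HIF subunits and regulators, HIF1A, the oxygen-labile subunit, lay at 269, 267 and 280.1 CPM across the controls beside 412, 437 and 409 CPM in KD1 to KD3. All HHEX hairpin libraries, KD3 included, were above all controls (log2 fold change 0.62, SE 0.12, edgeR adjusted p = 0.0811). Its RNA does not show the amount of HIF1A protein, which is set mainly by destruction. ARNT was higher by 0.26 (SE 0.14, edgeR adjusted p = 0.306) without overlap. ARNT2, a partner subunit of mainly neural cells, lay at 14.4 ± 3.32 CPM over the controls against 31.4 ± 17.4 CPM over the HHEX hairpin group (SD, n = 3 each).

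Of 20 other hypoxia-induced genes, 15 had log2 fold changes above 0 and 9 had groups that did not overlap, all with the HHEX hairpin group higher. Over all tested genes, 6946 of 14280 had log2 fold changes above 0 and 11.6% had such groups with the HHEX hairpin group higher. The median log2 fold change of the 20 genes was 0.42. GBE1, the glycogen branching enzyme, was higher by 0.65 (SE 0.18, edgeR adjusted p = 0.126), and AK4, a mitochondrial adenylate kinase, by 0.62 (SE 0.18, edgeR adjusted p = 0.131).

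Of 17 other glycolytic isoenzymes, 5 were expressed enough to be tested, with a median log2 fold change of 0.15, and 2 of the 5 had groups that did not overlap, both higher. PFKFB2, ADPGK and BPGM differed by 0.29 (SE 0.16), 0.15 (SE 0.12) and 0.23 (SE 0.18) on the log2 scale. The 11 genes of pyruvate entry into the mitochondria had a median of 0.09, with MPC2, a subunit of the mitochondrial pyruvate carrier, at 0.62 (SE 0.20, edgeR adjusted p = 0.153). The 7 enzymes of the pentose phosphate pathway, which branches off after hexokinase, also had a median of 0.09, with groups that did not overlap in 1 gene that was higher (PGD) and in 2 that were lower (PGLS and RPIA). PGLS, its lactonase, lay lower in each HHEX hairpin library than in each control (29.2 ± 3.62 against 16.4 ± 5.20 CPM, SD, n = 3 each; log2 fold change -0.83, SE 0.23, edgeR adjusted p = 0.129). TXNIP, which curbs glucose uptake and is induced by glucose, lay at 14.9, 11.3 and 9.72 CPM across the controls beside 34.2, 35.0 and 10.9 CPM in KD1 to KD3.

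Among the controls, control3 had the lowest level in 33 of the 35 tested members. Over all tested genes it was the lowest of the controls in 30.5%, and control1 was in 33.5%, against 1 member (SLC16A3). The other exception was PDK3, lowest in control2. Control3 was the highest of the controls in 0 members, beside 31.9% of all genes. All 17 glycolytic enzymes, counting ALDOA with its few counts, and all 12 HIF targets outside glycolysis were lowest in control3. A single library against 2 others allows no test, so these are values of the library and not of a condition.

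Against the mean of control1 and control2 the log2 difference of control3 had a median of -0.50 over the glycolytic enzymes and -0.41 over the HIF targets outside glycolysis. With control2 alone as reference the order of these medians was the reverse, -0.48 and -0.52. Over all tested genes the median was 0.01, and the 5th percentile was -0.46. Leaving aside ALDOA (36.9%, on 9 counts in control3), the tested enzymes stood at 39.5% (PFKFB4) to 86.9% (HK1) and 89.8% (PFKM) of the mean of the other controls. Among them GPI, TPI1, GAPDH, PGK1, PGAM1, ENO1, ENO2, PKM and LDHA lay between 65.7% and 73.3%. The HIF targets also ranged widely, from ADM at 35.3%, CA9 at 36.2%, EGLN3 at 44.0%, BNIP3 at 54.7% and NDRG1 at 57.8% to MXI1 at 91.7% and EGLN1 at 94.9%. In 9 members control3 was at least 1.5-fold below the others (3.1% of all genes): SLC2A3, PFKFB4, ALDOA (on few counts), PGK1, BNIP3, CA9, EGLN3, NDRG1 and ADM.

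**Figure D5:**
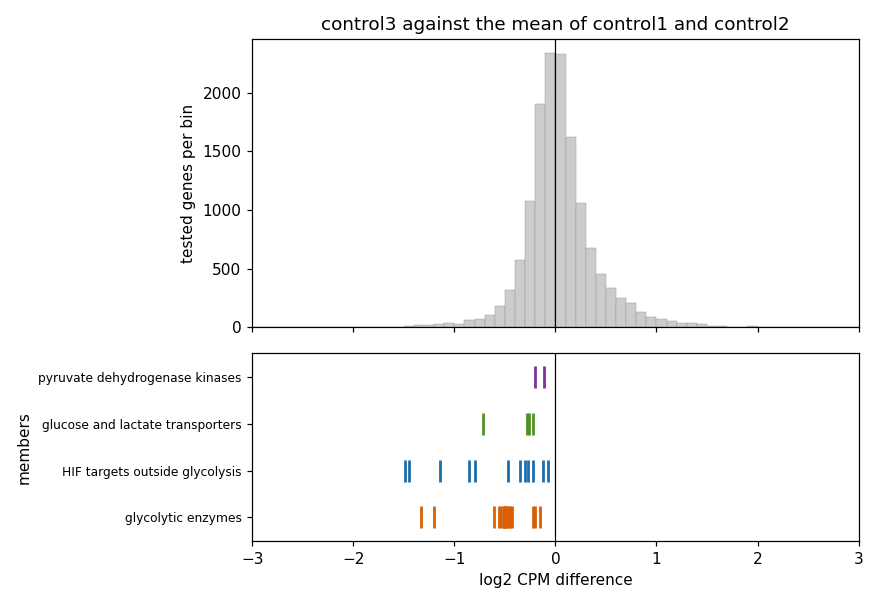
Top, number of tested genes by log2 CPM difference of control3 from the mean of control1 and control2, in bins of 0.1; bottom, the 35 tested members by role on the same axis. All members lie to the left of 0, with the lowest at -1.49 (ADM).

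In 27 of the 35 tested members the exact 95% Poisson interval of control3 lay below those of both other controls. In the other 8 (SLC16A3, PFKM, ALDOA, PDK1, PDK3, EGLN1, ANKRD37 and MXI1) it did not. Overlap of separate intervals does not show that a gap lies within counting error, and the gaps themselves were not tested. The interval of ADM was 21.9 to 26.9 CPM in control3 and 59.3 to 68.0 CPM in control1, and that of LDHA was 1081 to 1114 CPM and 1584 to 1627 CPM. Control3 had a total count of 14673875, within the range of the other libraries, and the largest scaling factor, 1.05. Genes of the further hypoxia-induced list were also lower in control3, with a median of -0.34, whereas HIF1A was not (280.1 CPM).

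Levels between genes can be compared only per transcript length. In the controls ENO1 ranked first, at 1967 ± 353 CPM per kilobase of its principal transcript (SD, n = 3), then GAPDH at 975 ± 183, PKM at 705 ± 120, LDHA at 592 ± 119 and TPI1 at 391 ± 82.2 CPM per kilobase. ENO1 stood above GAPDH by more than the sum of their SDs, whereas GAPDH and PKM, and PKM and LDHA, did not differ by that much over the controls. These SDs hold the low values that control3 had in all of them, and within each control the order GAPDH, PKM, LDHA was the same. Per kilobase of all exons PKM and LDHA were in the other order, at 224 and 230.4 CPM. NDRG1, at 272 ± 77.3 CPM per kilobase, was the most abundant HIF target outside glycolysis. PDK1 and PDK3 lay at 4.30 ± 0.455 and 4.22 ± 0.677 CPM per kilobase of principal transcript (14.2 and 1.92 kilobases long), but at 4.10 and 1.64 CPM per kilobase of all their exons, so that their order of level and their shares of the pair depend on the length used. The regulators PFKFB3 and PFKFB4 (8.88 ± 1.78 and 8.12 ± 3.60 CPM per kilobase) lay below each phosphofructokinase subunit.

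The promoters of the members were read for the core of the hypoxia response element, ACGTG, on either strand, in the 250 bases before and 50 bases after each start site (RefSeq, GRCh38.p14). Of the 37 members, 33 had at least 1 entry, with 62 promoters in all, and 21 of the 33 (63.6%) held the motif in at least 1 promoter. Over all 27305 genes with an entry the share was 24.9%, and over the 10201 tested genes it was 32.4%, beside 64.5% of the 31 tested members. Per promoter, the motif was found in 40.3% of those of the members and in 21.4% of all. The members are known HIF targets for the most part, so this share was to be found whatever the libraries hold. Glycolytic enzymes (12 of 19, 63.2%) and HIF targets outside glycolysis (6 of 10, 60.0%) had it about equally often. Its part in the members' levels was not tested. A match is a description of the letters and shows no binding.

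Below are the 250 bases before a start site of 3 members that were high in the libraries labelled KD1 and KD2 (LDHA, PGK1 and CA9), of EGLN1, high in all 3 HHEX hairpin libraries, and of P4HA1 and ANKRD37, which were low in KD1 and KD2. They were picked among promoters that hold the core, from genes that lay on opposite sides of the controls. P4HA1 was only a little below control3 (99.8 CPM) in KD1 and KD2 (92.7 and 92.6 CPM), and ANKRD37 had few counts. PGAM1, ENO1 and PKM, also high in KD1 and KD2, had 0 matches in their promoter entries. Capitals mark ACGTG or its reverse complement CACGT, and CACGTG holds both. LDHA held 5 matches in 3 places, PGK1 held 2 matches, ANKRD37 held 3 matches in 2 places, and CA9, EGLN1 and P4HA1 held 1 match each.
LDHA, chr11:18394313-18394562, plus strand: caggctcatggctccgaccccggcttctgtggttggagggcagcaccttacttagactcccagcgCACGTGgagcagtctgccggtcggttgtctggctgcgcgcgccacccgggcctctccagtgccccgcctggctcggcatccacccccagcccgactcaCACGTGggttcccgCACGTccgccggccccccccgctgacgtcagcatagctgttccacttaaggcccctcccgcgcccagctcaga
PGK1, chrX:78103998-78104247, plus strand: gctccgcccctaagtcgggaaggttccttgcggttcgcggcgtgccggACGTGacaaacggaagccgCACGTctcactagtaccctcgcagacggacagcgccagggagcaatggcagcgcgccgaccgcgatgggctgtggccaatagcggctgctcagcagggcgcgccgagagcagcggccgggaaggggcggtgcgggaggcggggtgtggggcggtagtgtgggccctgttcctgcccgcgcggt
CA9, chr9:35673678-35673927, plus strand: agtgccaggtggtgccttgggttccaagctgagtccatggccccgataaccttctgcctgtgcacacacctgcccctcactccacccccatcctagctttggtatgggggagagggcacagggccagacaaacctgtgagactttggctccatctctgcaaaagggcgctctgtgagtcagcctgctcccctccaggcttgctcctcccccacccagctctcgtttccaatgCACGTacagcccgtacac
EGLN1, chr1:231422288-231422537, minus strand: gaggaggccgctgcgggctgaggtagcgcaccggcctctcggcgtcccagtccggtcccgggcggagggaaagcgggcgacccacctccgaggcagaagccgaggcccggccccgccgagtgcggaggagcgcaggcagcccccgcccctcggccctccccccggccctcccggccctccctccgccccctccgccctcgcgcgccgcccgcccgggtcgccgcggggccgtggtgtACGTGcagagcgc
P4HA1, chr10:73096867-73097116, minus strand: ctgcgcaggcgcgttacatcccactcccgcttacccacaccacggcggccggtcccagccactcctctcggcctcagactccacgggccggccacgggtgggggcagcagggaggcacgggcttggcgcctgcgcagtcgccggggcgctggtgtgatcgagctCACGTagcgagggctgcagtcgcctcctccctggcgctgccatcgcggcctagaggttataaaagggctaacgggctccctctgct
ANKRD37, chr4:185396591-185396840, plus strand: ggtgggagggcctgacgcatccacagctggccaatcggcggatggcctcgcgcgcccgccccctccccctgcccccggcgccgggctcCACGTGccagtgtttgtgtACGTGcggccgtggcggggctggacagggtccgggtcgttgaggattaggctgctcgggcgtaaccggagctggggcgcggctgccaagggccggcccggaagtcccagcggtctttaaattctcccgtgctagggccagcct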

How the data were processed

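RNA-seq was made from 3 control hairpin and 3 HHEX hairpin libraries. Trizol was used to extract RNA and a kit to capture mRNA, per the labels' protocols. Aligner, counter, genome build and strand setting were not stated (not given in the sources used here). What the authors deposited is a table of raw counts per gene. Gene coordinates equalled those of GENCODE release 29 on GRCh38 for 58672 of 58735 named genes. A further 998 of 59733 rows without a gene name (0.239% to 0.298% of counts) stayed out of library sizes and tests, and 6 columns of per-sample values were not used. From a column name only the group can be read.

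Counts were filtered by filterByExpr, scaled by TMM and tested with edgeR 4.0.16 (glmQLFit with robust estimation, glmQLFTest, no covariate) in R 4.3.3, with Benjamini-Hochberg adjustment over 14280 genes and a threshold of 0.05. The SE of a log2 fold change was derived from its F statistic. Log2 CPM used a prior count of 2, and single libraries were compared on that scale, 1.5-fold included. Counts per kilobase used the APPRIS principal transcript. On simulated counts of the 14280 genes, the fit recovered 60 of 100 genes changed 2-fold and 91 of 100 changed 4-fold, with 7 false calls. The simulated counts were drawn independently, with the same mean for all libraries of a group. They hold no library that departs from its group as KD3 does, so these rates need not hold for the real libraries. Alternatives were RLE, upper-quartile and no scaling, other filters, each library left out, and DESeq2 1.42.0. The members, the gene lists and the rule for named genes (all members, HHEX, and up to 3 tested genes of smallest p in each further list) were chosen with earlier results of these data known. CDK1 was named after its values were seen, as was VEGFA, and EPAS1 was also named outside this rule. Some genes that the lists or the rule take are not reported here.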

Additional observations from a re-analysis of the deposited data

How the results depend on the processing

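By edgeR, 26 genes and 0 members passed in the fit of all libraries. Without the filter on low counts 1359 genes and 13 members passed, and with DESeq2 862 genes and 8 members, the cause of which was not tested. Leaving out each library in turn gave 0 to 4675 genes and 0 to 20 members, the upper values without KD3. At an unadjusted p under 0.05 the fits without KD1, KD2, control2 and control3, which called 0 genes, held 1789, 1625, 1947 and 1806 genes. With control1 and control2 alone as reference, 5 members lay at least 1.5-fold below in KD1 and KD2, and 5 at least 1.5-fold above in KD3.

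Members near 0 changed sign. With upper-quartile factors, which moved the median of all genes to -0.08, the log2 fold changes were -0.030 for PFKL, -0.010 for NDRG1 and -0.042 for P4HA2, and with no scaling -0.0046 for PFKL and -0.020 for P4HA2. Leaving out each library in turn gave -0.98 to 0.29 for SLC2A3, -0.10 to 0.20 for PFKL, -0.24 to 0.68 for ALDOA, -0.34 to 0.22 for NDRG1, -0.36 to 0.81 for ADM, -0.065 to 0.10 for P4HA2 and -0.11 to 0.19 for KDM3A. The median of the glycolytic enzymes lay between 0.42 (without control3) and 0.67 (without control1), and that of the HIF targets outside glycolysis between -0.02 (without KD3) and 0.20. No paired analysis was possible because the columns of the table carry no replicate label of the titles. Few counts limit what can be read from ALDOA, ALDOC, LDHB, EGLN3 and ANKRD37.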

Other observations

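VEGFA, the vessel growth factor and a textbook HIF target, was picked from the list of other hypoxia-induced genes after its values were seen. It lay at 224, 251 and 257.7 CPM in control1 to control3, at 85.0 and 88.5 CPM in the libraries labelled KD1 and KD2, and at 293.5 CPM in KD3 (edgeR adjusted p = 0.451). It was thus below the controls in KD1 and KD2, as MXI1 and SLC2A3 were. Unlike those genes and the glycolytic enzymes, VEGFA was not lowest in control3 among the controls. VEGFA does not stand for its list, in which 15 of 20 genes had log2 fold changes above 0. The median log2 difference of that list from the control mean was 0.525 in KD1 and 0.525 in KD2. EPAS1, the HIF2A subunit, lay at 198 to 250.1 CPM in the controls, at 179.9 and 211 CPM in KD1 and KD2 and at 287 CPM in KD3.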
